A study of Mus musculus with 8 samples.

Results

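The messages of 8 cytokine genes were followed in mouse bone-marrow-derived macrophages: Tnf, Il6, Il12a, Il12b, Il23a, Il27, Il15 and Il10. They were chosen by name as inflammatory and regulatory cytokines outside the interleukin 1 family. Of the 8 genes, 7 were listed among the 14193 genes of the IL-4 table and the same 7 among the 13676 genes of the PBS table, and Il12a was listed in neither. RNA sequencing compared macrophages of mice knocked out for NF-κB-inducing kinase (NIK KO) with those of wild-type (WT) mice, 2 female mice of each genotype, aged 12 weeks. Marrow cells of every mouse were grown for 7 days in medium with 30% supernatant of L929 fibroblasts, a source of M-CSF, replated in 5%, and kept for 6 hours with 20 ng/mL IL-4 or with PBS. The 4 groups of 2 libraries were thus NIK KO with IL-4, WT with IL-4, NIK KO with PBS and WT with PBS. The way the knockout was made, and whether it was confined to some cells, could not be learned from the labels. The authors' tables give 1 value per gene and comparison, so no value per library can be shown and library depth is not known.

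TNF, made largely by activated macrophages, signals through TNFR1 and TNFR2 and turns on NF-κB. IL-12, IL-23 and IL-27 are each made of a pair of chains: Il12b encodes the chain shared by IL-12 and IL-23, Il12a and Il23a encode the partners that tell those cytokines apart, and Il27 encodes a chain that pairs with the product of Ebi3. IL-6 signals through the shared receptor chain gp130 (Il6st) to STAT3. IL-10 uses its own receptor, also signals to STAT3 and restrains the production of the inflammatory cytokines, and IL-15 supports T and NK cells. NIK starts noncanonical NF-κB signalling, and IL-4, which acts through STAT6, moves macrophages to the alternatively activated state.

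The direction of every change, NIK KO over WT, was read from how the IL-4 table is named and carried over to the PBS table. Map3k14, the gene of NIK, stood higher on the side labelled NIK KO. Its mean normalized count was 832 in the libraries labelled NIK KO and 418 in WT with IL-4, and 902 in the libraries labelled NIK KO and 425 in WT with PBS. In the authors' deposited table its log2 fold change was 0.99 ± 0.22 (standard error) with IL-4 (DESeq2 adjusted p = 0.00782) and 1.09 ± 0.28 with PBS (adjusted p = 0.176). That goes against the label of a knockout, although reads outside a removed part would still be counted, and a swapped direction would turn the sign of each change below. All 8 macrophage markers, among them Csf1r, Adgre1 and Lyz2, were listed in both tables. So were all 8 dendritic cell markers, led by Itgax (base mean 1741 with IL-4 and 285 with PBS). Flt3, another of them, was scarce (13.5 with IL-4 and 9.22 with PBS). Of 8 T cell markers 4 were listed in each table, led by Cd28 (base mean 669 with IL-4 and 411 with PBS), and Cd3e, Cd3d and Cd3g were in neither. Of 6 B cell markers 3 were listed with IL-4 and 2 with PBS, led by Ighm (base mean 87.1 with IL-4 and 96.1 with PBS), and Ms4a1 and Pax5 were in neither. Of 5 erythroid markers 3 were listed in each table. They summed to 89.0 normalized counts in the libraries labelled NIK KO and 186 in WT with IL-4. With PBS they summed to 62.6 in the libraries labelled NIK KO and 56.9 in WT. The listed neutrophil markers summed to 173 in the libraries labelled NIK KO and 242 in WT with IL-4, and to 203 and 224 with PBS. None of these listed markers was called by DESeq2, where 0.125% of all genes with IL-4 and 0.0366% with PBS were. Fibroblast markers are given below with Il6.

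The windows before the starts of Tnf, Il6 and Il12b, textbook targets of NF-κB in macrophages, are shown. RefSeq promoter entries were found for 4 of the 8 genes: Tnf, Il6, Il12b and the unlisted Il12a. Il23a, Il27, Il15 and Il10 had no entry, so the windows shown are those of every listed gene with one. Each window below is the 250 bases before the start on build GRCm38.p6, 5′ to 3′ on the strand of the gene. Capitals mark matches on either strand to GGGNNTTTC, a narrow spelling of an NF-κB site, and to TATAAA, the TATA box.
Tnf: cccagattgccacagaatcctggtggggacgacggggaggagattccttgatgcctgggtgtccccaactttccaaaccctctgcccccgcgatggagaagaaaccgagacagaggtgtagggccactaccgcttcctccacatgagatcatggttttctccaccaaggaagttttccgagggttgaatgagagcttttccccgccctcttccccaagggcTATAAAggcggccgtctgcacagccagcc
Il6: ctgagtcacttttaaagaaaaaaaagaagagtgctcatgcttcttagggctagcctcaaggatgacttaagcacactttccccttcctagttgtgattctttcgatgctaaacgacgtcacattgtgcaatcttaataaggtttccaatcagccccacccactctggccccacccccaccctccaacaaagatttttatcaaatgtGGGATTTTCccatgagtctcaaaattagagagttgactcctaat
Il12b: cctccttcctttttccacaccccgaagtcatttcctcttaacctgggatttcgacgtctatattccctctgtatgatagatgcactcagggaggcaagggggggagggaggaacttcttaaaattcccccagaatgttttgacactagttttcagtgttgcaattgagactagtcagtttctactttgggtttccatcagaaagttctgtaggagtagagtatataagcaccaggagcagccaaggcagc

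The Tnf window is chr17:35202008-35202257 on the minus strand, the Il6 window chr5:30012864-30013113 on the plus strand and the Il12b window chr11:44399813-44400062 on the plus strand. The spelling GGGNNTTTC is found once in Il6, 44 to 36 bases before the start, and has no match in the windows of Tnf and Il12b. It occurs in 3.71% of 32536 such windows. This spelling was settled after others had been searched, and a looser NF-κB spelling also had matches in the Tnf window. A window without GGGNNTTTC may therefore still hold NF-κB sites. TATAAA, found in 12.3% of windows, is in that of Tnf. TTCNNNGAA, a site bound by STAT factors and found in 7.04% of windows, is in none of these 3. A match is a stretch of letters and says nothing of binding.

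In these macrophages Tnf was the most abundant message of the set per length of the longest transcript, followed by Il15 and Il10, while Il6, Il12b, Il27 and Il23a were scarce. Levels were recovered from the base mean (the authors' average of normalized counts) and the fold change, as the mean normalized count of each group of 2 libraries. Divided by the longest transcript, Tnf stood at 407 normalized counts per kilobase in the libraries labelled NIK KO and 600 in WT with IL-4, and at 803 in the libraries labelled NIK KO and 1129 in WT with PBS. Il15 stood at 138 per kilobase in the libraries labelled NIK KO and 153 in WT with IL-4, and at 167 in the libraries labelled NIK KO and 199 in WT with PBS. Il10 followed with 58.6 per kilobase in the libraries labelled NIK KO and 39.3 in WT with IL-4, and 73.7 in the libraries labelled NIK KO and 38.3 in WT with PBS. These 3 kept that order in all 4 groups, but not with the median transcript length in place of the longest. Il15 then stood above Tnf in the libraries labelled NIK KO with IL-4, and Il6, at 45.4 per kilobase, above Il10, at 38.3, in WT with PBS. Il23a was lowest in each group, between 1.89 and 4.28 per kilobase. Il27, Il6 and Il12b lay between 3.41 and 32.9 and changed places from group to group. In WT with PBS Il12b was at 21.8 per kilobase and Il6 at 20.4, but with the median length Il12b was at 22.3 and Il6 at 45.4. The spread of a level over mice cannot be computed from these tables, so neighbours in this order carry no test. In bulk RNA, fewer cells that make a message and less of it per cell cannot be told apart.

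**Figure D1:**
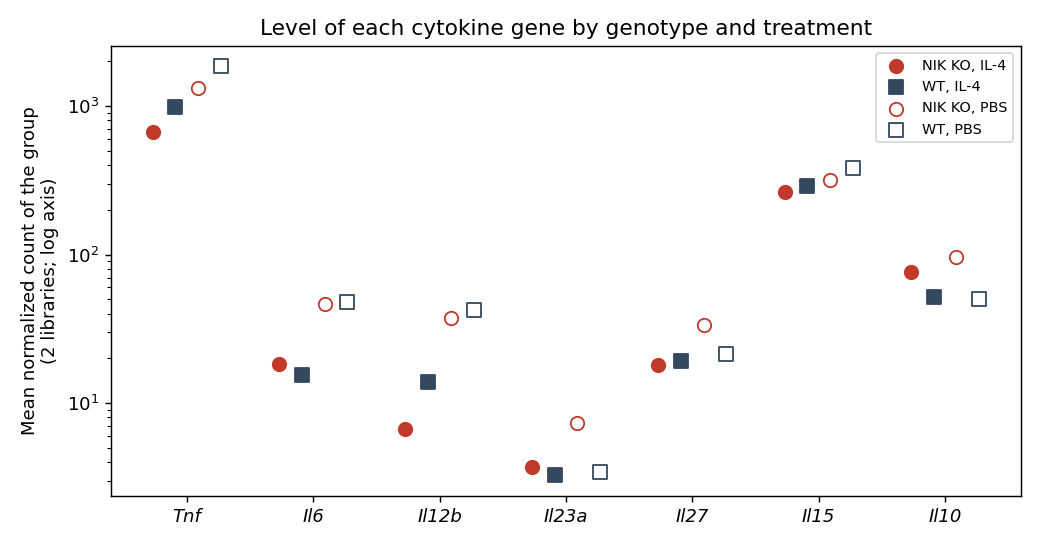
Mean normalized count of each cytokine gene (log axis, not divided by length) in the 4 groups of 2 libraries, filled symbols with IL-4 and open symbols with PBS, circles NIK KO and squares WT. Tnf is highest in every group, from 667 to 1851, and Il23a lowest, from 3.26 to 7.38.

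No cytokine gene of the set was called different between genotypes under either treatment. With IL-4, 0 of the 6 genes with an adjusted p had one under 0.05 in the authors' DESeq2 test (Wald statistic, Benjamini-Hochberg adjusted), against 0.125% of all genes. With PBS it was 0 of 7 by the same test, against 0.0366% of all genes. At an unadjusted DESeq2 p under 0.05 there were also 0 of 7 in each table, where all genes gave 2.95% with IL-4 and 1.24% with PBS. With IL-4, 3 of the 7 fold changes were above 0 and the median was -0.09 (all genes -0.01). With PBS, 3 of 7 were above 0 and the median was -0.04 (all genes -0.01). Calls were rare in the whole table, so 0 calls among 7 genes tells little by itself. The intervals below say what sizes of change the data leave room for.

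The inflammatory cytokine Tnf averaged 667 normalized counts in the libraries labelled NIK KO and 984 in WT with IL-4, and 1316 in the libraries labelled NIK KO and 1851 in WT with PBS. In the authors' deposited table its log2 fold change was -0.56 ± 0.90 with IL-4 (DESeq2 p = 0.532) and -0.49 ± 0.88 with PBS (p = 0.575). The point estimates were lower on the NIK KO side in both tables, yet neither was beyond its error. The 95% intervals ran from 0.20-fold to 2.30-fold with IL-4 and from 0.216-fold to 2.35-fold with PBS, so both a large fall and a large rise remained inside them.

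Il6, the other classical inflammatory cytokine here, had 18.4 normalized counts in the libraries labelled NIK KO and 15.4 in WT with IL-4. With PBS it had 46.4 in the libraries labelled NIK KO and 47.8 in WT. The authors' deposited table gives 0.26 ± 1.24 with IL-4 (DESeq2 p = 0.835) and -0.04 ± 0.63 with PBS (p = 0.946). The genotypes were nearly level with PBS, with a 95% interval from 0.411-fold to 2.29-fold. With IL-4 the interval from 0.223-fold to 6.41-fold was too wide to say more. Markers of fibroblasts, which can make IL-6, mostly stood lower in the libraries labelled NIK KO with IL-4. The 7 markers summed to 141 normalized counts there and 413 in WT, with 1 of the 7 called by DESeq2 (0.125% of all genes). The collagen genes Col3a1, Col1a2 and Col1a1 made up most of the WT sum, at 129, 107 and 103. Pdgfrb went the other way, at 27.7 in the libraries labelled NIK KO and 23.1 in WT. With PBS the 6 listed summed to 99.2 in the libraries labelled NIK KO and 116 in WT, with 0 called (0.0366% of all genes). Their part in the Il6 values was not tested.

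Among the IL-12 family, Il12b had 6.63 normalized counts in the libraries labelled NIK KO and 13.8 in WT with IL-4, and 37.4 in the libraries labelled NIK KO and 42.5 in WT with PBS. Its log2 fold change in the authors' deposited table was -1.06 ± 1.30 with IL-4 (DESeq2 p = 0.415) and -0.18 ± 0.74 with PBS (p = 0.804). The IL-4 estimate is below 1 standard error and rests on about 10.2 normalized counts per library. Il23a, the IL-23 chain, had 3.70 normalized counts in the libraries labelled NIK KO and 3.26 in WT with IL-4, and 7.38 in the libraries labelled NIK KO and 3.41 in WT with PBS. In the authors' deposited table it was at 0.18 ± 1.96 with IL-4, with no adjusted p, and at 1.11 ± 1.78 with PBS (DESeq2 p = 0.532). Its interval with PBS, from 0.192-fold to 24.3-fold, shows that no direction can be read at this level.

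Il27 had 17.9 normalized counts in the libraries labelled NIK KO and 19.1 in WT with IL-4, and 33.6 in the libraries labelled NIK KO and 21.4 in WT with PBS. The authors' deposited table puts it at -0.09 ± 0.89 with IL-4 (DESeq2 p = 0.915) and at 0.65 ± 0.73 with PBS (p = 0.370). The gene overlaps Apobr on the other strand in GENCODE M21, and since strand use in the counting is not stated, its counts may hold reads of that gene. Ebi3, the partner chain of IL-27, named here for that role and after its values were seen, was at -0.21 ± 0.24 with IL-4 and 0.11 ± 0.29 with PBS in the authors' deposited table, and was not called.

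Il10 and Il15 gave the tightest estimates. Il10, the cytokine that restrains the others, had 76.8 normalized counts in the libraries labelled NIK KO and 51.4 in WT with IL-4, and 96.6 in the libraries labelled NIK KO and 50.2 in WT with PBS. Its fold changes in the authors' deposited table, 0.58 ± 0.50 with IL-4 (DESeq2 p = 0.244) and 0.94 ± 0.51 with PBS (p = 0.0618), had the largest Wald statistics of the 7 genes in both tables. Neither passed, with DESeq2 adjusted p of 1.00 in both, and the 95% intervals, from 0.761-fold to 2.93-fold with IL-4 and from 0.968-fold to 3.82-fold with PBS, include no change. Il15 had 264 normalized counts in the libraries labelled NIK KO and 291 in WT with IL-4, and 319 in the libraries labelled NIK KO and 380 in WT with PBS. It was at -0.14 ± 0.30 with IL-4 and -0.25 ± 0.32 with PBS in the authors' deposited table. Its intervals, from 0.607-fold to 1.36-fold with IL-4 and from 0.548-fold to 1.29-fold with PBS, are the narrowest of the set.

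**Figure D2:**
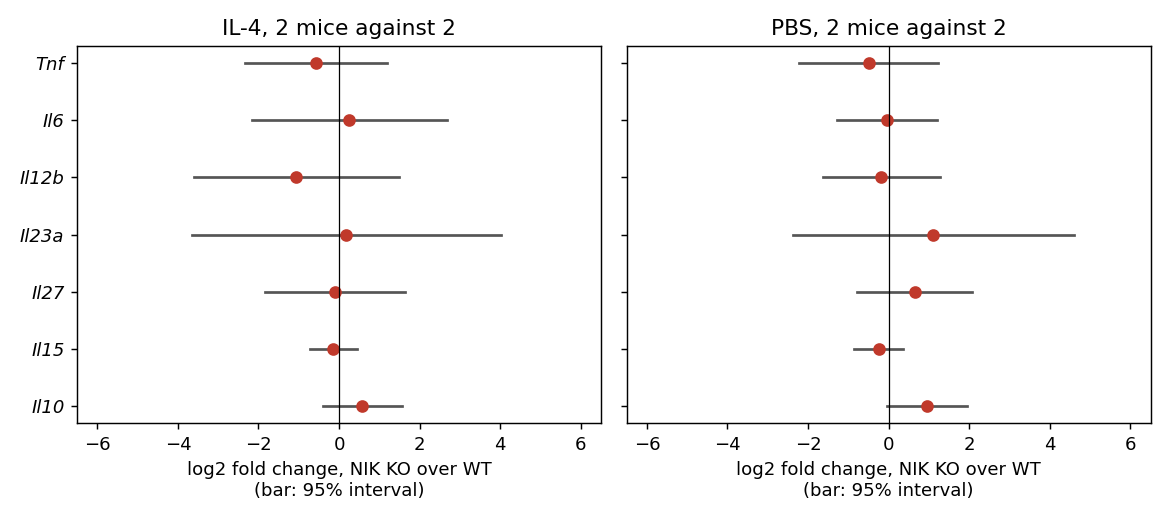
Log2 fold change, NIK KO over WT, of the 7 listed cytokine genes with IL-4 (left) and PBS (right); points are the authors' estimates and bars 95% intervals, from 2 mice against 2. All 14 bars cross 0, and they are narrowest for Il15 and widest for Il23a.

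The size of change that these tables could have called differs widely between the genes. The smallest Wald statistic of any called gene, an upper bound on the limit for a call, was 4.06 with IL-4 and 4.46 with PBS. Multiplied by the standard errors, Il15 would have needed a 2.29-fold change with IL-4 and a 2.65-fold change with PBS, and Il10 a 4.04-fold change with IL-4 and a 4.77-fold change with PBS. Tnf, in spite of its high level, would have needed 12.5-fold with IL-4 and 15.1-fold with PBS. For Il23a it was 246-fold with PBS. With IL-4 Il23a, at a base mean of 3.48, had no adjusted p, so no size is given for it. Genes without an adjusted p with IL-4 had base means up to 3.49. Moderate genotype effects on most of these cytokines could therefore not be detected here.

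The standard error of Tnf was much larger than its level would give. It was 4.40 times the median of the 200 genes nearest in base mean with IL-4 and 3.38 times with PBS, and larger than in 100% of those genes in both tables. Counting noise alone, at these group means, would give a standard error of 0.0512 with IL-4 and 0.0368 with PBS, against 0.90 and 0.88. Under the DESeq2 variance model with equal size factors, the standard error corresponds to a coefficient of variation between libraries of the same genotype of 62.2% with IL-4 and 60.8% with PBS, whereas Il15 gives 19.6% with IL-4 and 21.2% with PBS. The spread that the model used for Tnf was thus far larger than that for Il15. For Il15, at 1.06 times the median of its neighbours with IL-4 and 1.02 with PBS, it is largely that of other genes at its level. The tables do not show which library was high for Tnf. Among the scarcer genes, Il6 with IL-4 also stood out somewhat, with a standard error larger than in 97.5% of its 200 neighbours and 1.29 times their median. The other genes were at 0.945 to 1.16 times the median of their neighbours, where DESeq2 pulls the spread of a gene toward that of its level.

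Genes that TNF and NF-κB turn on shared this wide scatter in part. Among genes of base mean 100 or more, a standard error at least 3 times that of the neighbours in level, a limit chosen after the values were seen, was found for 75 of 9513 genes (0.788%) with IL-4 and 66 of 9266 (0.712%) with PBS. Of the 18 TNF and NF-κB target genes it was found for 8 with IL-4 and for 6 with PBS. The chemokine genes Ccl5, Cxcl2, Ccl2 and Cxcl1 and the mitochondrial superoxide dismutase gene Sod2 were among them in both tables. Cxcl2, for example, had a standard error of 0.96 with IL-4 and 0.95 with PBS, at ratios of 4.65 and 3.59. Socs3, a feedback inhibitor induced through STAT3, reached ratios of 4.40 and 4.97. Of the 9 STAT3 target genes 2 passed the limit with IL-4 (Socs3 and Il1rn) and 1 with PBS (Socs3). Of the transcription factors it was 2 of 24 with IL-4 (Nfkbiz, also counted among the targets, and Cebpb) and 1 of 21 with PBS (Cebpb). None of the receptors, of the JAK and STAT genes, of the TNF signalling proteins or of the genes of mRNA decay and release at this base mean passed this limit in either table. Whether culture, mouse or library handling goes with the scatter was not tested, since no value per library is held in these tables.

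**Figure D3:**
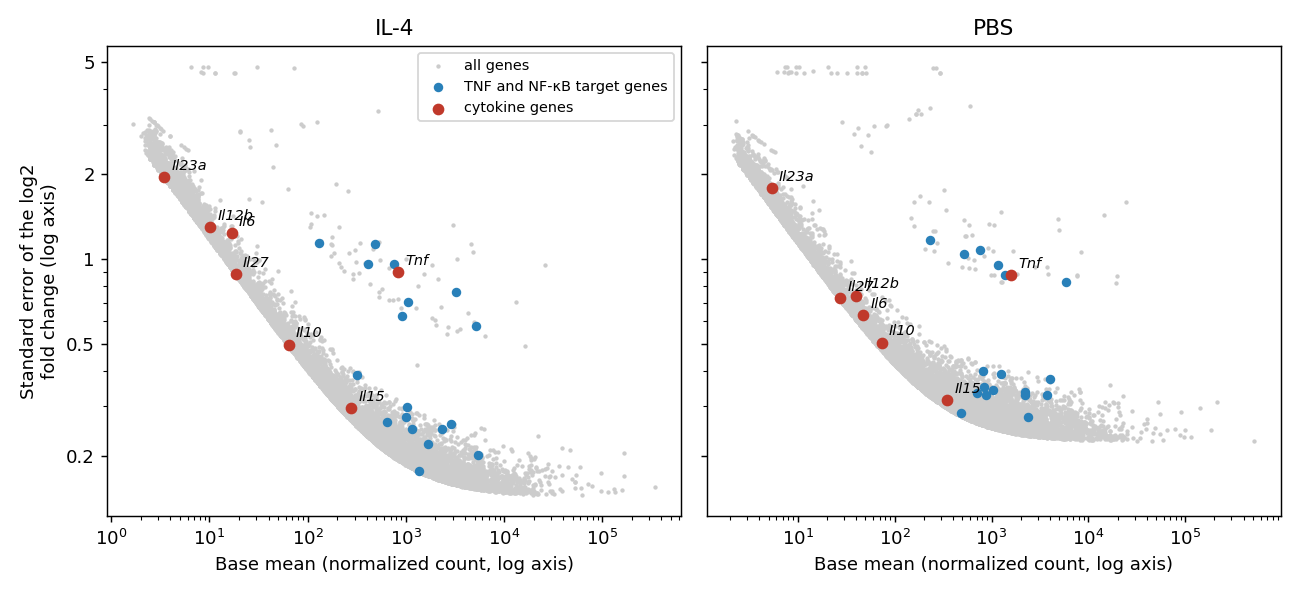
Standard error of the log2 fold change against base mean (both log axes) for all genes (grey), 18 TNF and NF-κB target genes (blue) and the 7 cytokine genes (red), with IL-4 (left) and PBS (right). Tnf lies far above the band of genes of its level, at 0.90 with IL-4 and 0.88 with PBS, among several of the target genes, while the other cytokine genes lie in or at the edge of the band.

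Every cytokine gene of the set had a lower base mean in the IL-4 table than in the PBS table. The tables were normalized separately and no test was made: over 11668 genes of base mean 10 or more in both, the median log2 ratio of IL-4 over PBS was 0.27. Il12b had a base mean of 10.2 with IL-4 and 39.9 with PBS, a log2 ratio of -1.96. Il6 had 16.9 with IL-4 and 47.1 with PBS, a log2 ratio of -1.48. Tnf had 825 with IL-4 and 1583 with PBS, a log2 ratio of -0.94. These 3 inflammatory genes were lower with IL-4 in both genotypes. The log2 ratios for Il12b were -2.49 in the libraries labelled NIK KO and -1.62 in WT, those for Il6 -1.34 in the libraries labelled NIK KO and -1.64 in WT, and those for Tnf -0.98 in the libraries labelled NIK KO and -0.91 in WT. Few genes had lower ratios: of the 11668, 0.197% lay below Il12b, 0.506% below Il6 and 1.77% below Tnf. Read against the median of all genes, Tnf stood at 0.432 of its PBS level, Il6 at 0.297 and Il12b at 0.213. These ratios carry no error of their own. With IL-4 the standard error of Tnf was 4.40 times the median of genes of its level, that of Il6 1.29 times and that of Il12b 1.07 times. For Il12b and Il6 the implied spread is thus largely that of other genes at such low counts. The implied coefficient of variation with IL-4 was 83.7% for Il12b, 82.1% for Il6 and 62.2% for Tnf.

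By base mean the other genes differed less between the treatments. Il15 had log2 ratios, IL-4 over PBS, of -0.27 in the libraries labelled NIK KO and -0.38 in WT. Il10 was at -0.33 in the libraries labelled NIK KO and 0.03 in WT, and Il27 at -0.91 in the libraries labelled NIK KO and -0.16 in WT. Il23a, with a base mean of 3.48 with IL-4 and 5.40 with PBS, rests on too few counts to place.

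**Figure D4:**
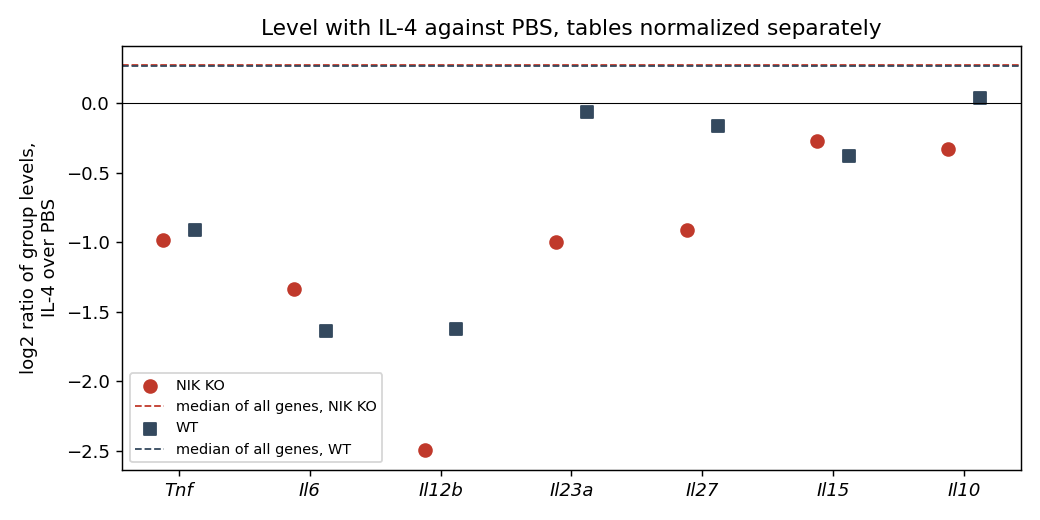
Log2 ratio of the group level with IL-4 over that with PBS for each cytokine gene, circles NIK KO and squares WT; dashed lines give the median of all genes in each genotype (0.27 in NIK KO and 0.26 in WT). Il6, Il12b and Tnf are the lowest in WT, Il12b and Il6 are the lowest in NIK KO, and every point lies under the median of all genes.

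To ask whether the genotype effect differed between treatments, the PBS fold change was subtracted from the IL-4 fold change and divided by the combined error. Both treatments used the same mice, and the test ignores any correlation this brings. Of the 7 genes 0 were called after Benjamini-Hochberg adjustment over 13384 genes, against 0.0149% of all genes, and 0 had an unadjusted p under 0.05 (0.867% of all genes). The difference for Tnf was -0.07 ± 1.26, with a 95% interval from -2.53 to 2.39 on the log2 scale. For Il10 it was -0.36 ± 0.71 (interval -1.75 to 1.02) and for Il15 0.11 ± 0.43 (interval -0.74 to 0.96). Those for Il12b, Il27 and Il23a were -0.88 ± 1.50, -0.74 ± 1.14 and -0.93 ± 2.64, and that for Il6 was 0.30 ± 1.39. All 7 intervals include 0, and for most genes they are wide enough to hold a large difference either way.

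Around the cytokines, neither the receptors nor the signalling genes gave a call. That says little where 0.125% of all genes with IL-4 and 0.0366% with PBS were called. Of the 13 receptor chains 12 were listed in each table, and DESeq2 called 0. With IL-4, 9 of the 12 fold changes were above 0 (median 0.10). The largest Wald statistic was that of Il6st, the gp130 chain of the IL-6 and IL-27 receptors, at 0.50 ± 0.22 in the authors' deposited table (5426 normalized counts in the libraries labelled NIK KO and 3827 in WT, unadjusted DESeq2 p = 0.0196). With PBS Il6st was at 0.06 ± 0.35 in the authors' deposited table. Tnfrsf1b, which encodes TNFR2, was at 0.29 ± 0.16 with IL-4 and 0.29 ± 0.24 with PBS in the authors' deposited table. With PBS, 8 of 12 were above 0 (median 0.05), and Il10ra, the ligand-binding IL-10 receptor chain, was at 0.33 ± 0.24 there in the authors' deposited table. With IL-4 Il10ra was at 0.005 ± 0.18 in the authors' deposited table. All 9 JAK and STAT genes had fold changes above 0 with IL-4 (median 0.21, with 48.9% of all genes above 0), and 5 of 9 with PBS (median 0.02). Stat3, the factor through which IL-6 and IL-10 act, was at 0.37 ± 0.17 with IL-4 in the authors' deposited table (unadjusted DESeq2 p = 0.0310). With PBS Stat3 was at 0.19 ± 0.27 in the authors' deposited table. Stat4, which IL-12 uses in T cells, was at -1.52 ± 0.67 with PBS (unadjusted DESeq2 p = 0.0231), but at 0.96 ± 1.10 with IL-4 in the authors' deposited table. With PBS Stat4 had 17.5 normalized counts in the libraries labelled NIK KO and 50.2 in WT. None of the 9 was called in either table by DESeq2 (0 of 9). The 18 TNF signalling proteins centred on 0.02 with IL-4 and -0.01 with PBS, with 0 called. None of these 18 had an unadjusted DESeq2 p under 0.05, against 2.95% of all genes with IL-4 and 1.24% with PBS.

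The target genes of TNF and NF-κB mostly had fold changes slightly below 0, and none was called. With IL-4 1 of 18 fold changes was above 0 and the median was -0.14, and with PBS 2 of 18 and -0.20, where 51.1% and 51.7% of all genes were below 0. DESeq2 called 0 of 18 in either table (0.125% of all genes with IL-4 and 0.0366% with PBS). At an unadjusted DESeq2 p under 0.05 there were also 0, where all genes gave 2.95% with IL-4 and 1.24% with PBS. In the authors' deposited table Nfkbia, the inhibitor IκBα, was at -0.33 ± 0.26 and Cxcl1 at -1.06 ± 1.14 with IL-4. In the authors' deposited table Nfkb2 was at -0.51 ± 0.34 and Icam1, an adhesion molecule, at -0.52 ± 0.37 with PBS. With IL-4 Nfkb2 was at -0.13 ± 0.25 and Icam1 at -0.25 ± 0.58. These genes respond to common signals and are not independent of each other, so their shared sign carries no test. The 9 STAT3 target genes had medians of 0.12 with IL-4 and 0.02 with PBS, with 0 called. Among them Il4ra, the IL-4 receptor chain, was at 0.29 ± 0.17 with IL-4 and 0.09 ± 0.24 with PBS in the authors' deposited table.

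Genes that control cytokine messages gave no call either, which says little where 0.125% of all genes with IL-4 and 0.0366% with PBS were called. Of the 26 transcription factors, all listed, DESeq2 called 0 (medians 0.03 with IL-4 and -0.01 with PBS). Maf, a factor that drives Il10, was at 0.32 ± 0.18 with IL-4 and 0.58 ± 0.24 with PBS in the authors' deposited table (unadjusted DESeq2 p = 0.0758 and 0.0160). Its level was 5054 normalized counts in the libraries labelled NIK KO and 3387 in WT with PBS. The next largest Wald statistics were those of Irf5 with PBS and Cebpd with IL-4. In the authors' deposited table Irf5 was at 0.17 ± 0.15 with IL-4 and 0.41 ± 0.23 with PBS. Cebpd was at -0.50 ± 0.36 with IL-4 and -0.17 ± 0.42 with PBS there. Of the 15 genes of mRNA decay and release, DESeq2 called 0 (medians 0.06 with IL-4 and 0.16 with PBS). Zc3h12a, the nuclease regnase-1 that degrades Il6 mRNA, was at -0.52 ± 0.30 with PBS in the authors' deposited table. Of 30 other ligands of these families 18 were listed in each table, and DESeq2 called 0 (medians -0.17 with IL-4 and 0.07 with PBS). Tnfsf13, which encodes the B cell factor APRIL, had 383 normalized counts in the libraries labelled NIK KO and 589 in WT with IL-4, and 426 in the libraries labelled NIK KO and 631 in WT with PBS. It was at -0.62 ± 0.23 with IL-4 and -0.57 ± 0.27 with PBS in the authors' deposited table (unadjusted DESeq2 p = 0.00773 and 0.0392).

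**Figure D5:**
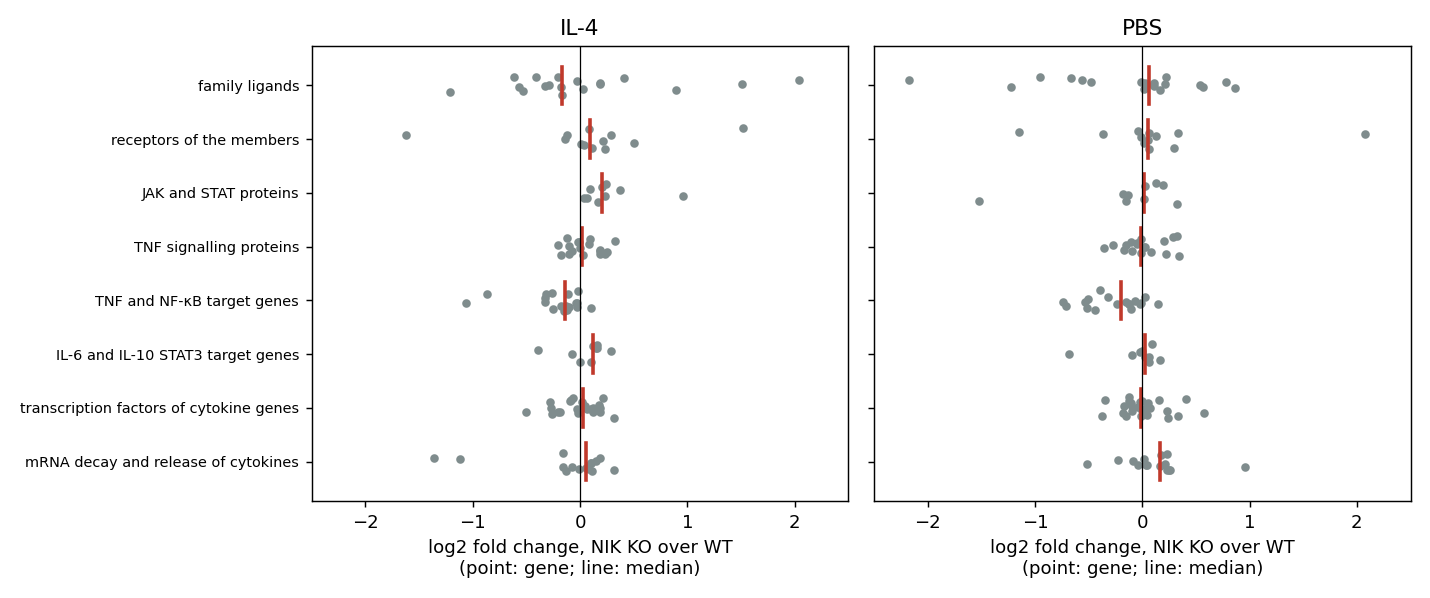
Log2 fold change, NIK KO over WT, of the genes in 8 lists around the cytokines, with IL-4 (left) and PBS (right); points are genes and red lines the median of a list. The TNF and NF-κB target genes have medians of -0.14 and -0.20, and the JAK and STAT genes 0.21 and 0.02.

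The genes whose pair of Wald statistics lay nearest to that of Il10, among 1207 genes with a base mean within a factor of 2 in both tables, were Ccr3, Homez and Tspyl3. Ccr3, a chemokine receptor best known from eosinophils, was at 0.48 with IL-4 and 0.99 with PBS on the log2 scale. For Tnf, among 1463 genes, they were Mtmr14, Ak6 and Pls3, whose log2 fold changes of -0.11 to -0.16 are much smaller than those of Tnf because their errors are smaller. This likeness spans 2 comparisons only and is a description.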

How the data were processed

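Macrophage RNA from 8 libraries (4 groups of 2) is described by 2 tables, each comparing genotypes within a treatment. Per the submitters' processing notes, the authors used Salmon 1.4.0, DESeq2 1.32.0 and genome build GRCm39, with no role given. The annotation and any filters are not stated. The authors deposited, per the file headers, the base mean, a signal that averages normalized counts over the 4 libraries of a table. The authors deposited the log2 fold change with its standard error, also log2. The deposited Wald statistic is a score equal to their ratio, so fold changes were not shrunken. The authors deposited DESeq2's p-values, raw and adjusted, and 551 genes with IL-4 have no adjusted p. Where a symbol had 2 rows (Itgam), the one of higher base mean was used in lists.

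Group means were computed from base mean and fold change for equal groups. Intervals are the estimate ± 1.96 standard errors. The difference between treatments was a z test, two-sided, tested on simulated data first. Transcript lengths are from GENCODE M21 (GRCm38). Depth per library is unknown, and the standard error sets the precision (median 0.22 with IL-4 and 0.30 with PBS among genes of base mean 100 or more). Labels name separate mice, 4 in all, each with a library per treatment. Named genes are the cytokines and, of each list, the 2 genes of largest Wald statistic per table. The text gives most of these, and others are named for their part in a result. The promoter motifs were settled after other spellings had been searched, and a looser NF-κB spelling also had matches in the Tnf window. The cytokines and lists were chosen with earlier results of these data known. Alternatives covered the threshold, low genes, centring, trends on base mean and length, the t distribution, and error correlation. Python 3.11.15 was used with numpy 2.4.6, pandas 2.3.3, scipy 1.17.1, statsmodels 0.14.6 and matplotlib 3.10.9.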

Additional observations from a re-analysis of the deposited data

How the results depend on the processing

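None of the cytokine genes was called under any alternative run: a threshold of 0.1, genes of base mean 10 or more only, centring on the median, subtraction of a trend on base mean or on transcript length, and a t distribution. Over 119 values of single genes under these alternatives, 116 kept their direction and none was called (lowest adjusted p 1.00, lowest unadjusted p 0.0435 for Il10 with PBS after the base mean trend was subtracted). The other 3 changed sign: Il27 with IL-4 became 0.0654 after the trend on base mean and 0.0533 after that on length, and Il6 with PBS became 0.0348 after the trend on base mean. All were within a small part of their error. The threshold, the base mean limit, the t distribution and the error correlation leave each estimate unchanged. A direction could thus change only under centring or a subtracted trend, and most of the kept directions were fixed in advance. With a t distribution (2 degrees of freedom) 0 of all genes were called, against 17 with IL-4 and 5 with PBS, since its wide tails let no statistic pass. In the difference between treatments, all genes gave 2 calls, 20 with errors correlated by 0.5 and 0 with a t distribution (4 degrees of freedom). Levels per kilobase depend on the transcript taken: with the median length of 526 bases in place of 1908, Il15 stood at 503 in the libraries labelled NIK KO with IL-4, above Tnf at 430, and in the other 3 groups it stayed below Tnf. With the median length Il6 with PBS stood at 44.1 in the libraries labelled NIK KO and 45.4 in WT, in place of 19.8 in the libraries labelled NIK KO and 20.4 in WT, which put it above Il10 (38.3) in WT. No paired analysis was possible because the genotypes come from different mice and the tables hold no value per library. Leaving out a library was not run for the same reason.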
